A study of Mus musculus with 6 samples.

Results

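Cytotoxic lymphocyte and natural killer (NK) genes were examined in mouse liver tumors whose cancer cells carried a PD-L1 plasmid or an empty one. The set was taken by symbol: every endogenous gene of the panel whose name starts with Klr (19 genes) or Gzm (4 genes), and 11 named genes for killer cell receptors, adaptors and granule proteins. That gave 34 of 750 endogenous genes. The tumors had grown from the BALB/c liver cancer line BNL-MEA, transfected and selected with G418 as stable clones, and placed beneath the liver capsule, in the left lobe. The hosts were BALB/c males, 6 to 7 weeks old. By their titles and treatment labels, the group ovPDL1 (3 samples) carried the PD-L1 plasmid and the group Empty (3 samples) the empty plasmid, with transfection, selection and host shared. The descriptions of the Empty samples also name an empty plasmid, but say that their selected clones expressed PD-L1, and nothing else in the labels settles this. Total RNA of tumor tissue was counted on a NanoString nCounter panel, in which a barcoded probe counts each transcript, and values are on the log2 scale as deposited.

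Clones were selected separately for each plasmid, and clonal and PD-L1 effects cannot be told apart. Whether each sample is a mouse of its own is not stated in the labels, so p-values measure only the spread between these samples. Recovered counts over the endogenous and reference genes ran from 1009717 to 1894819 per sample. Cd274, the gene for PD-L1, stood at 6.17, 5.36 and 5.87 in ovPDL1 replicates 1 to 3 and at 6.95, 5.32 and 7.43 in Empty replicates 1 to 3, replicates 1 and 3 of which were above every ovPDL1 sample. The difference was -0.76 ± 0.59 (SE, n = 3 per group; adjusted p = 0.557, limma), so no higher Cd274 level was seen in the group labelled as carrying the PD-L1 plasmid. Whether the probe counts the plasmid's transcript is not given. The groups are therefore named as labelled, and each difference below is one between labels.

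Cytotoxic T cells and NK cells kill by releasing granules that hold perforin, which opens the target's membrane, and granzymes, the proteases that then enter it. NK cells weigh signals from activating receptors, such as NKG2D and NKp46, against inhibitory ones, such as CD94/NKG2A and the Ly49 family, which read MHC class I molecules on the target. The mouse liver holds many NK cells and related innate lymphocytes. In bulk tissue, fewer cells of a type and less RNA per cell cannot be told apart.

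In each sample most of these genes lay below a detection limit set from the negative controls. A gene was called detected in a sample when its value was above the mean plus 2 SD of that sample's 8 negative control probes, on the log2 scale. In ovPDL1 replicates 1, 2 and 3, 8, 6 and 14 of the 34 genes were detected. In Empty replicates 1, 2 and 3 the numbers were 15, 3 and 14. The 2 groups overlapped, and ovPDL1 replicate 3 was closer to Empty replicates 1 and 3 than to its own group. Over all endogenous genes 64.3 to 79.7% were detected per sample, against 8.82 to 44.1% of these 34. Empty replicate 2, with the fewest, had the highest limit (5.44) and ovPDL1 replicate 2 the next highest (5.15), while the other limits lay between 3.88 and 4.45. The 34 genes together held 0.0827 to 0.239% of the endogenous counts. Against the highest negative control of each sample, a lower bar, 20, 8 and 19 of the 34 stood above it in ovPDL1 replicates 1 to 3. In Empty replicates 1 to 3 it was 19, 10 and 18.

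Across the samples 15 of the 34 genes were detected in none, 16 in 1 to 5, and Klra2, Sh2d1b1 and Ctsw in all 6. The 15 never detected were Cd244, Gzmm, Klrb1, Klrb1c, Klrc2 and all Ly49 genes of the panel except Klra2 and Klra17. Klrb1c encodes NK1.1, whose antibody epitope BALB/c mice lack. The Ly49 gene cluster also differs in content between inbred strains. Of the 34 deposited accessions 30 matched RefSeq's gene table for GRCm38.p6, a C57BL/6J assembly, and Klra15, Klra20, Klra21 and Klra27 did not. The Ly49 genes are close copies of each other, so which copies a probe counts is uncertain, and whether each probe matches the BALB/c sequence was not tested.

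**Figure D1:**
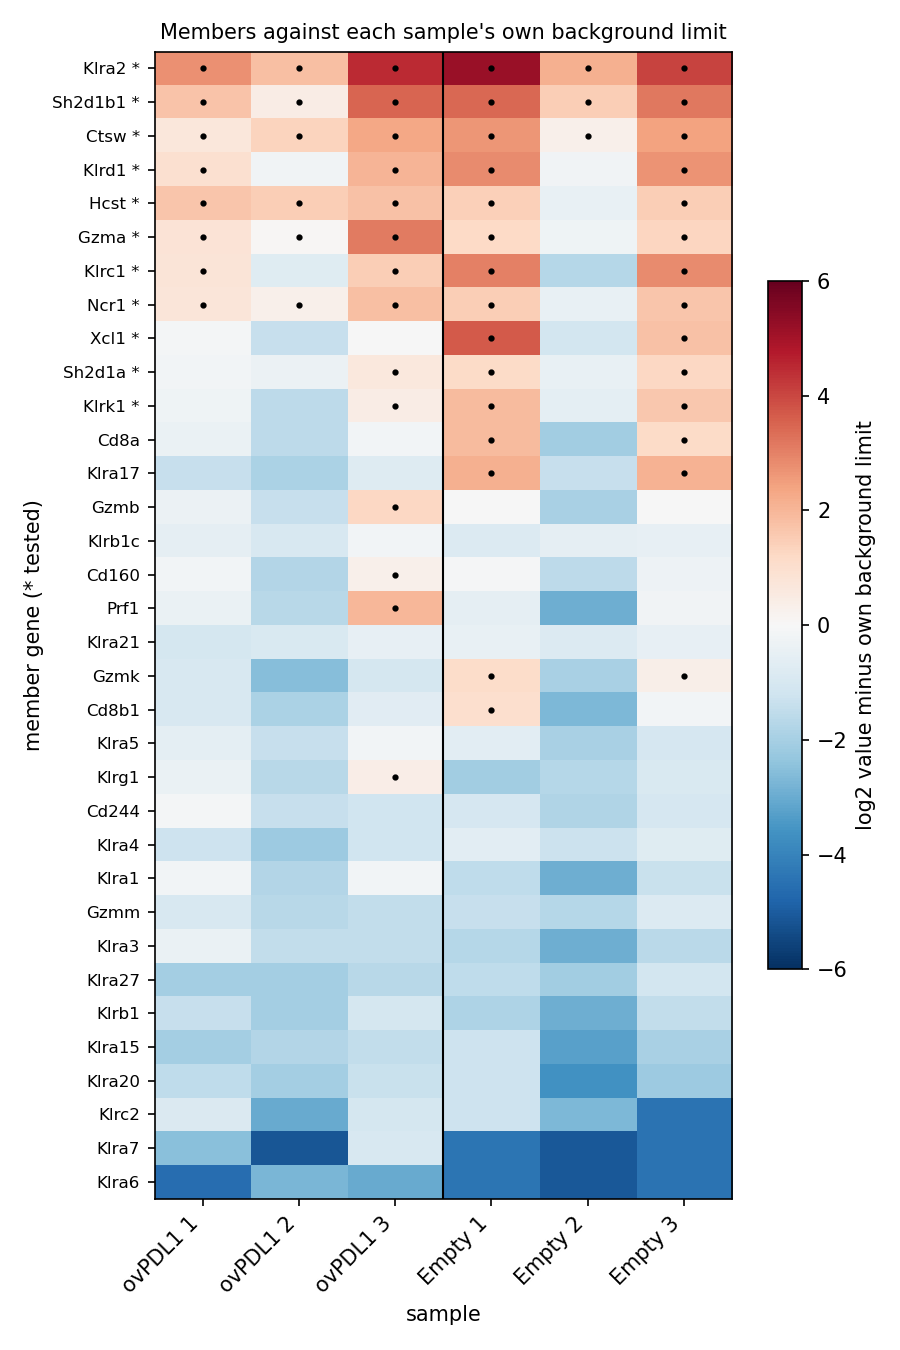
All 34 genes (rows, by falling mean) in the 6 samples (columns), coloured by log2 value minus that sample's own background limit. Black dots mark values above the limit, 8, 6 and 14 of them in ovPDL1 replicates 1 to 3 and 15, 3 and 14 in Empty replicates 1 to 3, and stars mark the 11 genes tested between groups.

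The group comparison asked whether these genes differed between ovPDL1 and Empty tumors. Genes were tested with limma when their mean over the 6 samples reached a common background limit of 4.66, the mean plus 2 SD of all negative control values, which kept 541 of 750 genes and 11 of the 34. None of the 11 passed limma's adjusted threshold of 0.05, which 0.0% of the 541 tested genes passed, and their adjusted p ran from 0.251 to 0.908. At an unadjusted p under 0.05 there were 2 of the 11, Hcst (higher) and Klrk1 (lower). Of all tested genes 17.0% met that rule, 7.21% higher and 9.8% lower in ovPDL1. limma's voom on the recovered counts gave 0 calls after adjustment as well, 83 genes at an unadjusted p under 0.05, and the same 2 of the 11. Of the 11, 3 were higher and 8 lower in ovPDL1, with a median log2 difference of -0.53, beside -0.12 over all tested genes, of which 59.9% were lower. Since these 11 are those that reached the limit, the median describes them and not the 34.

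**Figure D2:**
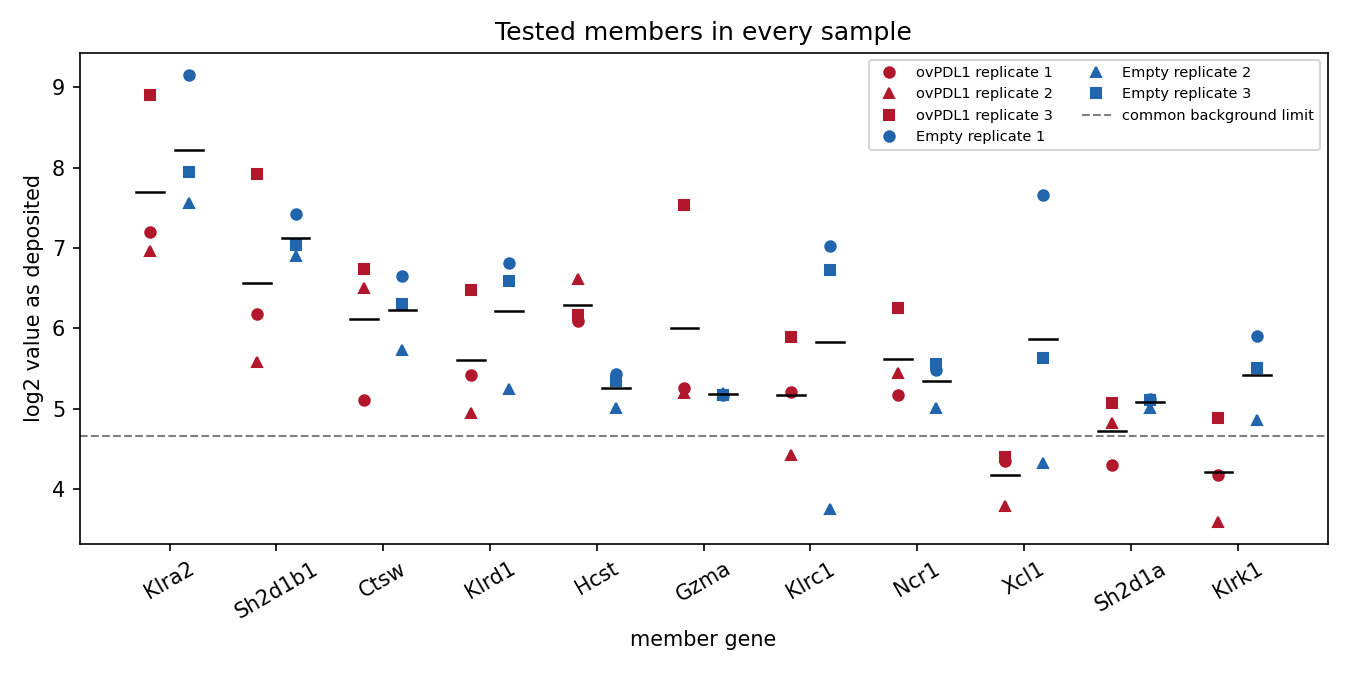
Log2 values as deposited of the 11 tested genes (x axis) in each sample, red for ovPDL1 and blue for Empty, with a symbol per replicate, a bar at each group mean and a dashed line at the common background limit of 4.66. Hcst is the gene whose groups stand clearly apart, and Gzma is set by ovPDL1 replicate 3 at 7.54.

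Among the activating receptors and their adaptors, Hcst and Klrk1 differed in opposite directions. Hcst encodes DAP10, the membrane adaptor through which the activating receptor NKG2D signals, and NK cells, T cells and myeloid cells make it. It stood at 6.09, 6.61 and 6.17 in ovPDL1 replicates 1 to 3 and at 5.43, 5.01 and 5.34 in Empty replicates 1 to 3. All 3 ovPDL1 samples were above all 3 Empty samples, with an SD of 0.28 in ovPDL1 and 0.22 in Empty. The gene was detected in all 3 ovPDL1 and 2 of 3 Empty samples, and Empty replicate 2 was under its limit of 5.44. The difference was 1.03 ± 0.31 (SE, n = 3 per group; limma 95% interval 0.29 to 1.77, adjusted p = 0.251), with p = 0.1 in the two-sided exact permutation test, the smallest that 3 against 3 samples allow. Leaving out any 1 sample kept it between 0.87 and 1.13. The groups did not overlap for 2 of the 11 genes, Hcst and Gzma, both higher in ovPDL1. Of all tested genes 18.3% did not overlap, 8.5% higher and 9.8% lower.

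Klrk1 encodes NKG2D itself, the receptor for stress-induced ligands. It stood at 4.18, 3.59 and 4.88 in ovPDL1 replicates 1 to 3 and at 5.90, 4.86 and 5.50 in Empty replicates 1 to 3. The groups overlapped only between ovPDL1 replicate 3 and Empty replicate 2, and the gene was detected in 1 of 3 ovPDL1 and 2 of 3 Empty samples. The difference was -1.20 ± 0.46 (SE, n = 3 per group; adjusted p = 0.291, limma). An exact permutation test gave p = 0.2. It had an interval from -2.31 to -0.10, and with the negative controls subtracted, which spreads values near background, it was -2.37 with an interval from -5.43 to 0.69. Relative to Ptprc, the gene for the leukocyte surface protein CD45, it was -1.41 ± 0.55 (SE; adjusted p = 0.303, limma). Hcst was then at 0.83 ± 0.55 (SE; adjusted p = 0.693, limma). Ptprc itself stood at 8.38, 9.15 and 9.61 in ovPDL1 and 9.18, 8.44 and 8.91 in Empty, replicates 1 to 3 each.

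Ncr1 encodes NKp46, the activating receptor that marks NK cells across mouse strains. It stood at 5.17, 5.44 and 6.25 in ovPDL1 replicates 1 to 3 and at 5.49, 5.01 and 5.55 in Empty replicates 1 to 3. Only in Empty replicate 2 was it not detected. The samples were mixed, with ovPDL1 replicate 3 the highest. Its difference of 0.27 ± 0.39 (SE, n = 3 per group; 95% interval -0.66 to 1.21, adjusted p = 0.749, limma) became -0.041 without ovPDL1 replicate 3. Among the other NK marker genes, Klrb1c and the transcription factor gene Eomes were detected in no sample, and the integrin gene Itga2 differed by 0.24 ± 0.72 (adjusted p = 0.885, limma). Over the 6 NK markers the summed linear level ran from 156 to 399 in ovPDL1 and from 174 to 392 in Empty.

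Sh2d1b1 and Sh2d1a encode EAT-2 and SAP, small adaptors that bind SLAM family receptors, the first in NK cells and some myeloid cells, the second in T and NK cells. Sh2d1b1 stood at 6.18, 5.58 and 7.92 in ovPDL1 replicates 1 to 3 and at 7.42, 6.90 and 7.03 in Empty replicates 1 to 3. Its highest and lowest samples were both ovPDL1, so its difference of -0.56 ± 0.62 (SE, n = 3 per group; adjusted p = 0.681, limma) depended on which was kept: it was -1.24 without ovPDL1 replicate 3 and -0.067 without ovPDL1 replicate 2. Mouse has a close copy, Sh2d1b2, and whether the probe separates the copies is not given. Sh2d1a stood at 4.29, 4.82 and 5.07 in ovPDL1 replicates 1 to 3 and at 5.12, 5.01 and 5.10 in Empty replicates 1 to 3, a difference of -0.35 ± 0.32 (adjusted p = 0.622, limma). Its groups overlapped through ovPDL1 replicate 3, and the gene was detected in 1 of 3 ovPDL1 and 2 of 3 Empty samples. Cd160, a receptor of killer cells that binds HVEM, was detected in ovPDL1 replicate 3 alone, with 32 counts against 12 to 26 elsewhere. Its exact Poisson 95% interval there, 21.9 to 45.2, took in the 26 counts of ovPDL1 replicate 1.

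The inhibitory receptor CD94/NKG2A is a pair, encoded by Klrd1 and Klrc1, that reads the non-classical class I molecule Qa-1. Klrc1 stood at 5.20, 4.42 and 5.89 in ovPDL1 replicates 1 to 3 and at 7.02, 3.75 and 6.73 in Empty replicates 1 to 3. Klrd1 stood at 5.42, 4.94 and 6.47 in ovPDL1 replicates 1 to 3 and at 6.81, 5.24 and 6.59 in Empty replicates 1 to 3. Both genes were highest in Empty replicates 1 and 3 and were not detected in ovPDL1 replicate 2 or Empty replicate 2. Klrc1 differed by -0.66 ± 0.92 (SE, n = 3 per group; adjusted p = 0.746, limma) and Klrd1 by -0.60 ± 0.58 (adjusted p = 0.645). Without Empty replicate 2 the differences were -1.70 and -1.09, and without Empty replicate 1 they were -0.066 and -0.31. H2-T23, the gene for Qa-1, differed by -0.81 ± 0.32 (adjusted p = 0.291, limma).

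Klra2 had the highest level of the Ly49 probes and is an exception among them, since in mouse its product Ly49B is found on myeloid cells. It stood at 7.20, 6.97 and 8.90 in ovPDL1 replicates 1 to 3 and at 9.15, 7.56 and 7.95 in Empty replicates 1 to 3. The groups overlapped widely, with ovPDL1 replicate 3 and Empty replicate 1 high, and the difference was -0.53 ± 0.65 (SE, n = 3 per group; adjusted p = 0.705, limma). It was -1.13 without ovPDL1 replicate 3 and -0.060 without Empty replicate 1. Its probe held 16.0 to 31.0% of the counts of the 34 genes. The 10 macrophage and monocyte markers were detected in every sample except for 1 of them in Empty replicate 1. Their summed linear level ran from 29429 to 51947 in ovPDL1 and from 19274 to 29948 in Empty. The probes of C1qa and C1qb held most of that sum in every sample. Of the 10 markers 9 were higher and 1 lower in ovPDL1, with a median log2 difference of 0.36. Single markers ranged widely: Mrc1 differed by 2.53 ± 0.53, Csf1r by 0.14 ± 0.25, Cd14 by 0.18 ± 0.30 and Emr1 by -0.058 ± 0.34. The part of these markers in the Klra2 and Hcst levels was not tested.

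Klra17, whose product Ly49Q is found on plasmacytoid dendritic cells and other myeloid cells in mouse, lay below the common limit on average and was not tested. Values for it and for the other untested genes named from here on are given because of how they looked. It stood at 3.07, 3.25 and 3.67 in ovPDL1 replicates 1 to 3, none detected, and at 6.10, 4.07 and 5.98 in Empty replicates 1 to 3, of which replicates 1 and 3 were detected. The recovered counts were 11, 11 and 15 against 115, 15 and 121. The difference of group means was -2.05 with no overlap, but Empty replicate 2 held as many counts as ovPDL1 replicate 3. Beside it, all 4 plasmacytoid dendritic cell markers on the panel were detected in every sample, and their summed linear level ran from 2455 to 4276 in ovPDL1 and from 4360 to 6233 in Empty. The probe of Bst2, which many cell types make, held most of that sum in every sample. The markers did not run one way: Irf7 differed by -0.89 ± 0.32, Bst2 by -0.66 ± 0.33 and Tlr9 by -0.44 ± 0.39, but Tlr7 by 1.18 ± 0.49 (adjusted p = 0.272, 0.355, 0.618 and 0.291, limma). Their part in the Klra17 level was not tested.

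The granule genes did not differ by group so much as by sample. Gzma, for granzyme A, stood at 5.26, 5.20 and 7.54 in ovPDL1 replicates 1 to 3 and at 5.17, 5.20 and 5.17 in Empty replicates 1 to 3. The gene was detected in every sample but Empty replicate 2. The groups did not overlap, but ovPDL1 replicate 2 at 5.199 was above Empty replicate 2 at 5.197 by far less than counting error. The difference of 0.82 ± 0.66 (SE, n = 3 per group; adjusted p = 0.569, limma; exact permutation p = 0.1) was 0.052 without ovPDL1 replicate 3. In that sample the probe held 222 recovered counts (exact Poisson 95% interval 194 to 253, counting error only), against 33 to 69 in the other 5.

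Prf1, for perforin, and Gzmb, for granzyme B, were detected in the same sample and no other. Prf1 held 101 counts in ovPDL1 replicate 3 (82.3 to 123), and 22, 13, 18, 5 and 24 in ovPDL1 replicates 1 and 2 and Empty replicates 1 to 3. Gzmb held 60 there (45.8 to 77.2), and 23, 16, 26, 10 and 28 in the others in the same order. In Empty replicates 1 and 3 its 26 and 28 counts lay just under the limits of 26.4 and 28.1 counts. Neither counting interval reached the highest count of another sample. Klrg1, an inhibitory receptor of effector cells that binds cadherins, was also detected there alone, with 34 counts against 6 to 22. Of the 34 genes 11 had their highest value in ovPDL1 replicate 3, where 11.5% of all 750 endogenous genes did. Those 11 include Klra5, Klra7 and Klrb1, which were detected in no sample. Empty replicate 1 was the highest sample for 10 of the 34, and for 18.1% of the 750.

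The other granule genes took other courses. Gzmk, for granzyme K, was detected in Empty replicates 1 and 3 only, with 56 and 36 counts against 7 to 15 elsewhere. Gzmm, for granzyme M, held 9 to 16 counts and was detected in no sample. Ctsw encodes cathepsin W, a protease of cytotoxic T and NK cells, and was detected in all 6 samples. It stood at 5.11, 6.50 and 6.74 in ovPDL1 replicates 1 to 3 and at 6.66, 5.74 and 6.30 in Empty replicates 1 to 3. These were mixed, with a difference of -0.11 ± 0.52 (SE, n = 3 per group; 95% interval -1.36 to 1.13, adjusted p = 0.908, limma) that became 0.39 without ovPDL1 replicate 1.

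**Figure D3:**
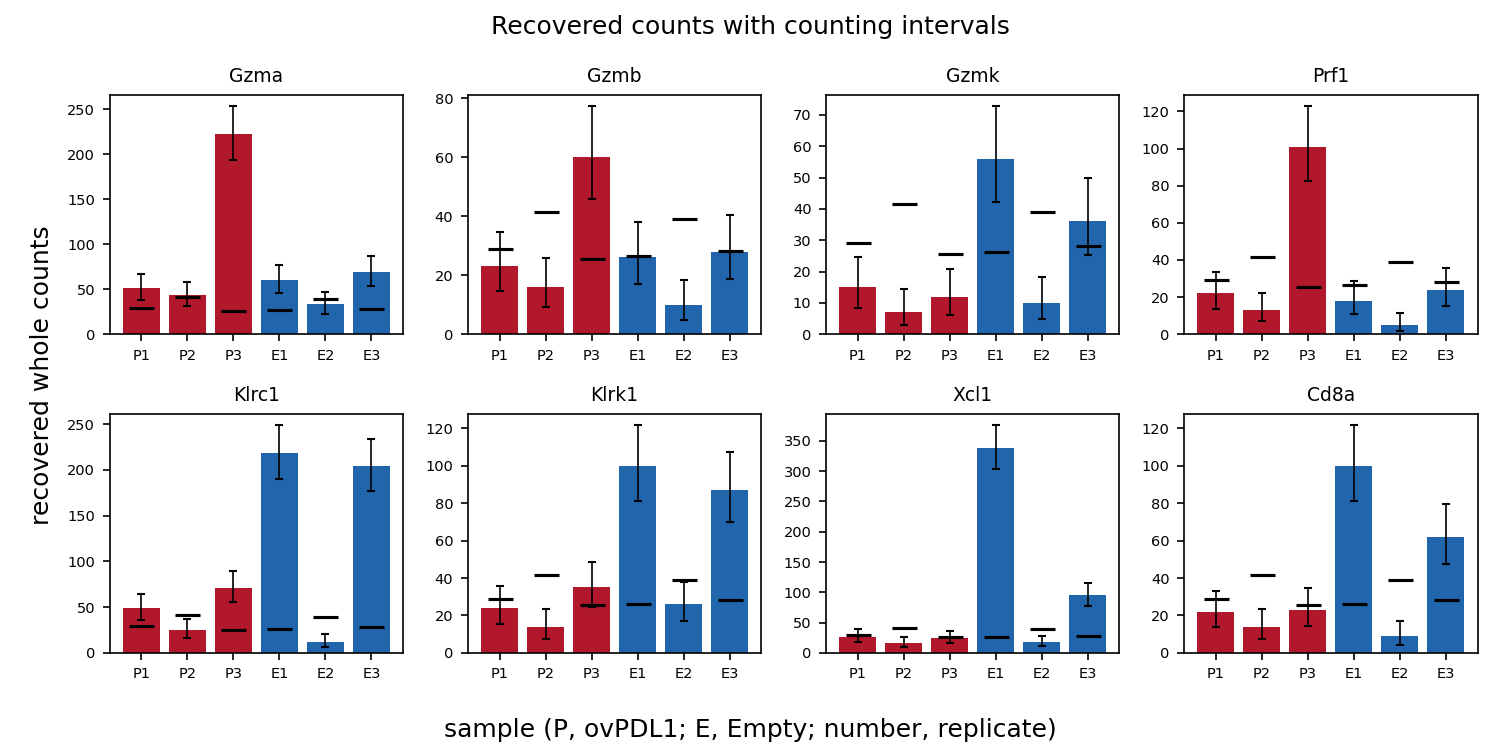
Recovered whole counts (y axis from 0, a scale per panel) of 8 genes in ovPDL1 (P, red) and Empty (E, blue) replicates 1 to 3, with exact Poisson 95% intervals as error bars and a black dash at each sample's own background limit in counts. Gzma, Gzmb and Prf1 peak in ovPDL1 replicate 3 (222, 60 and 101 counts), while Gzmk, Klrc1, Klrk1, Xcl1 and Cd8a are highest in Empty replicates 1 and 3.

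The promoters of the 3 granule genes that peaked in that sample are shown with those of Hcst and Xcl1, the tested genes with the largest differences in each direction. Each window runs from 250 bases before to 50 after the start in RefSeq's GRCm38.p6 annotation, 5′ to 3′ on the gene's strand. Capitals mark matches, on either strand, to 5 short motifs: TGTGGT (bound by Runx factors), TGANTCA (AP-1), GGAAGT (ETS), TGACGT (cAMP response element) and GGTGTG (T-box). No 2 matches overlapped in these windows.
Gzma, chr13:113100932-113101231, minus strand: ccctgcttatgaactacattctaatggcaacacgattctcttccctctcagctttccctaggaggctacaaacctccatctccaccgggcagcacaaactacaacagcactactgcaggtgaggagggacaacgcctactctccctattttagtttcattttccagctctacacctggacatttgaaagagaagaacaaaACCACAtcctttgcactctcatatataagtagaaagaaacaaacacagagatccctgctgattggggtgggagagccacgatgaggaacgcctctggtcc
Gzmb, chr14:56262285-56262584, minus strand: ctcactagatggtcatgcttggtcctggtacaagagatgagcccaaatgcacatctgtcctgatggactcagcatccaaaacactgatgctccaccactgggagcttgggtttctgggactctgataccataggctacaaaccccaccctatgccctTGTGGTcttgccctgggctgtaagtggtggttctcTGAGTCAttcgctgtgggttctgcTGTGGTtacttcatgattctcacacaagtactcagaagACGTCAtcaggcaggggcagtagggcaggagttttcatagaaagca
Prf1, chr10:61297586-61297885, plus strand: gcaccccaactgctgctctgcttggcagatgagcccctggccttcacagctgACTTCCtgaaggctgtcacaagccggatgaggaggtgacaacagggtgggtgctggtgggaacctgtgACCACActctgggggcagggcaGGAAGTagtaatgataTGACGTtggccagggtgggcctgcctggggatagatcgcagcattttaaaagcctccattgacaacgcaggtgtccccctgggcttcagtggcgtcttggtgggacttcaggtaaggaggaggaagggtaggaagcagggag
Hcst, chr7:30419805-30420104, minus strand: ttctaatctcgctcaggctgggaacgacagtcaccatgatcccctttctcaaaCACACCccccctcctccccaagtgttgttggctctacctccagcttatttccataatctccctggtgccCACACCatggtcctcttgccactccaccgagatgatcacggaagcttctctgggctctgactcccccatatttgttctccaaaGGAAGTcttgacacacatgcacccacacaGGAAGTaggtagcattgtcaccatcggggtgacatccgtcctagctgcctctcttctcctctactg
Xcl1, chr1:164935473-164935772, minus strand: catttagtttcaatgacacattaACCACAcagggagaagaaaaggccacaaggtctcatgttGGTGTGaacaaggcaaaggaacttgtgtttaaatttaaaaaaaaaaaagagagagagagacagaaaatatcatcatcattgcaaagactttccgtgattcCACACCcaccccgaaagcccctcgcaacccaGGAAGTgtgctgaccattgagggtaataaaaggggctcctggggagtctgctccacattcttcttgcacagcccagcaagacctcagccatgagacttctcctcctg

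The Runx letters stood once in the Gzma and Prf1 windows and 2 times in the Gzmb window, and none of the 3 held the T-box letters. Of the 25 genes of the set with a window, 13 held the Runx letters, 6 those of AP-1, 6 those of ETS, 2 those of the cAMP response element and 7 those of T-box. Over all 32851 windows the shares were 16.8%, 7.81%, 23.8%, 7.51% and 19.0%. A match of so few letters is a description of the sequence and not a binding site.

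The chemokine gene Xcl1 and the CD8 genes were highest in Empty replicate 1. Xcl1, the chemokine lymphotactin, which killer cells release and which attracts cross-presenting dendritic cells, stood at 4.35, 3.78 and 4.40 in ovPDL1 replicates 1 to 3, none detected. In Empty replicates 1 to 3 it stood at 7.65, 4.33 and 5.63. Empty replicate 1 was far above the rest, with 338 counts (303 to 376), replicate 3 held 95 and the other 4 samples 16 to 27. The difference was -1.69 ± 0.82 (SE, n = 3 per group; 95% interval -3.65 to 0.26, adjusted p = 0.342, limma; exact permutation p = 0.3). It was -0.80 without Empty replicate 1 and -2.47 without Empty replicate 2. Its receptor gene Xcr1 was detected in no sample.

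Cd8a and Cd8b1 encode the chains of the CD8 co-receptor. Cd8a held 22, 14 and 23 counts in ovPDL1 replicates 1 to 3 and 100, 9 and 62 in Empty replicates 1 to 3, and was detected in Empty replicates 1 and 3 only. Cd8b1 was detected in Empty replicate 1 alone, with 53 counts against 6 to 25. Cd3e, a chain of the T cell receptor complex, was likewise high in Empty replicates 1 and 3, at 6.35 and 5.31, and at 2.97 to 4.28 in the other 4. Of 12 T cell markers on the panel 2, 1 and 6 were detected in ovPDL1 replicates 1 to 3 and 10, 2 and 9 in Empty replicates 1 to 3. Their summed linear level ran from 192 to 294 in ovPDL1 and from 280 to 673 in Empty. The 3 tested T cell markers, Cd3d, Lck and Cd3g, differed by -1.05 ± 0.46, -0.95 ± 0.42 and -1.54 ± 0.78 (adjusted p = 0.304, 0.307 and 0.355, limma). The untested markers did not all run one way. Cd28, Cd2 and Cd4 were higher in ovPDL1, by 0.64, 0.34 and 0.14, and the rest, Cd3e among them, were lower.

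**Figure D4:**
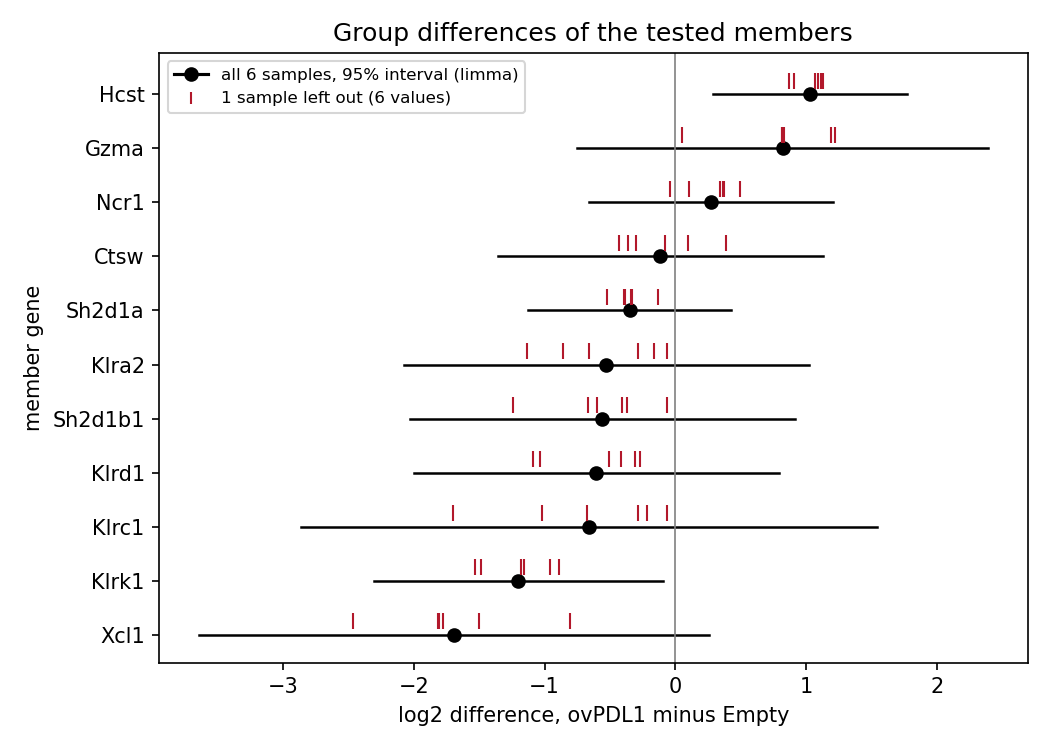
Log2 difference, ovPDL1 minus Empty, of the 11 tested genes (points) with limma's 95% interval over all 6 samples (lines) and the 6 values with 1 sample left out (red ticks). The intervals of Hcst and Klrk1 exclude 0 before adjustment, the red ticks of Ctsw and Ncr1 fall on both sides of 0, and those of Gzma, Klrc1, Klra2 and Sh2d1b1 reach close to it.

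The 23 genes below the common limit were higher in ovPDL1 in 17 cases, with a median log2 difference of 0.63. Of the 209 endogenous genes below the limit, 65.6% were higher too, with a median of 0.25. Their groups did not overlap for 6 of the 23, or 26.1%, and for 20.1% of the 209, 12.4% higher and 7.66% lower. Only Klra17 of these 6 was lower in ovPDL1, and the 5 that were higher, Klra1, Klra3, Klra5, Klra20 and Klrb1, were detected in no sample. The 15 never detected genes averaged 3.18 ± 0.10 in ovPDL1 and 2.43 ± 0.40 in Empty (SD, n = 3 each), while the negative controls averaged 2.98 ± 0.30 and 2.98 ± 0.56. Over all 34 genes the groups did not overlap for 8, 7 of them higher, where 18.8% of all endogenous genes did not overlap, 9.6% higher and 9.2% lower. With the negative controls subtracted, the median difference over all 34 genes went from 0.28 to 0.038, beside -0.04 over all endogenous genes as deposited, without subtraction. In the subtraction linear values under 1 were set to 1 before the log2 step, which removes differences between values at background. The smaller median therefore cannot decide whether the differences were background. Klra6 and Klra7 held 1 recovered count, the lowest of any probe, in all 3 Empty samples, and up to 6 and 13 in ovPDL1.

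The genes around the killer cell program were read from lists of related genes, and 0 of their tested members passed. Of 9 tested transcription factors and cytokine receptors 7 were lower in ovPDL1. Il2rb, the receptor chain through which IL-2 and IL-15 act on killer cells, differed by -1.03 ± 0.64 (adjusted p = 0.457, limma). Il18rap, a chain of the IL-18 receptor, was at 0.48 ± 0.27 (adjusted p = 0.408), and Tbx21 and Eomes, for the T-box factors of effector cells, were detected in no sample. The 4 tested genes for death ligands and effector cytokines had values below 0: the chemokine gene Ccl5 at -1.78 ± 0.51 (adjusted p = 0.251, limma), Ltb at -0.91 ± 0.75, Ccl3 at -0.16 ± 0.54 and Tnfsf10 at -0.13 ± 0.36. The same list held the death receptor genes Fas, at 0.40 ± 0.36, and Tnfrsf10b, at -0.056 ± 0.28. Fasl and Ifng, for Fas ligand and interferon-gamma, were detected in no sample.

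Of 11 tested ligands and partners of these receptors 9 were lower in ovPDL1. The class I gene H2-K1 differed by -0.98 ± 0.32 (adjusted p = 0.256, limma) and H2-D1 by -0.56 ± 0.28 (adjusted p = 0.355). The tested genes for ligands of NKG2D took opposite signs, H60a at 0.61 ± 0.28 (adjusted p = 0.322) and Ulbp1 at -0.60 ± 0.46 (adjusted p = 0.555). Of the 3 tested cytokines that act on killer cells, Il15 was at 0.53 ± 0.29 (adjusted p = 0.393). Of the 3 tested granule genes that many cell types share, the tetraspanin gene Cd63 was at 0.82 ± 0.34 (adjusted p = 0.291). None of these passed.

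Markers of liver and other cell types also differed between samples. The 7 hepatocyte genes on the list were all lower in ovPDL1, with a median difference of -4.01, and their summed linear level ran from 617 to 10509 in ovPDL1 and from 6122 to 74283 in Empty. Empty replicate 2, where Klrc1, Klrd1, Xcl1 and Cd8a were undetected, had the highest hepatocyte level, and ovPDL1 replicate 3, with the granule peak, the highest of its group. The same genes were undetected in ovPDL1 replicate 2 too, which had the lowest hepatocyte level, 617. These samples with the number 2 also had the highest detection limits, 5.44 in Empty and 5.15 in ovPDL1. Of the 8 B cell markers 6 were detected in no sample, as were Kit, Fcer1a and Ms4a2 of the 4 mast cell and basophil markers. The other 2 B cell markers, Ms4a1 and Cd79b, were detected in ovPDL1 replicate 2, at 6.50 and 6.93. Cd79b was also detected in Empty replicates 1 and 3, at 5.96 and 5.31. The endothelial markers were lower in ovPDL1 in 6 of 6. Of the 3 tested neutrophil markers S100a8 differed by 1.67 ± 0.48 with no overlap (adjusted p = 0.251, limma), Csf3r by -0.31 ± 0.59 and Cxcr2 by -0.0040 ± 0.28. Camp, which was not tested, differed by -0.12. The summed linear level of the neutrophil markers ran from 557 to 1566 in ovPDL1 and from 282 to 531 in Empty. The S100a8 probe held most of that sum in every sample, so the sum mainly repeats S100a8. The part of these cell types in the results above was not tested.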

How the data were processed

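Per the labels' protocols, NanoString nCounter probes counted tumor RNA of 6 samples, grouped by title, 3 each. The deposited values are log2; the authors' scaling and software are not given in the sources used here. Raised as powers of 2, the values of each sample were whole numbers times a factor (0.5188 to 1.1071) plus 0.158, within a tolerance of 0.02, which gave the recovered counts. The 2 deposited tables hold identical values for 770 genes, and one also holds 8 negative and 6 positive control probes.

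limma 3.58.1 in R 4.3.3 (lmFit, eBayes with a trend, group as the only term, Benjamini-Hochberg at 0.05) was run on all 541 genes at or above the background limit, with two-sided exact permutation tests for single values. Errors are SE or SD as stated. The genes and lists were chosen with earlier results of these data known. Genes tested were to be described in every sample, and the others by counts; further names were chosen after seeing values. From each list of related genes at most 4, by smallest p, were to be named. More were named from some lists, among them genes with a larger p and genes that were not tested.

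On data simulated for this comparison (541 genes, 200 changed, 20 runs), limma called 44.5% of genes changed by 1, 80.0% by 2 and 94.6% by 4 on the log2 scale, and 3.08% of calls were false. The simulated noise was normal and drawn separately for each gene, with no variation shared between genes. These rates hold for that setting and need not hold for the real samples. Same-numbered samples were not paired: their deviations correlated at 0.27, -0.20 and -0.13 over tested genes. No replicates agreed within counting noise (lowest chi-square over its degrees of freedom 145.4). Counting intervals cover counting error only. Alternatives covered scaling, background, filter, trend, voom on recovered counts, a replicate block, a level relative to Ptprc, and leaving out each sample. For background, the mean linear value of the negative controls was subtracted, and results under a floor of 1 were set to 1 before the log2 step. Python 3.11.15, numpy 2.4.6, pandas 2.3.3, scipy 1.17.1 and matplotlib 3.10.9 were used.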

Additional observations from a re-analysis of the deposited data

How the results depend on the processing

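The values near background limit what can be said: 15 of the 34 genes were detected in no sample, and 3 samples per group allow no exact p under 0.1. The count of tested endogenous genes past the adjusted threshold was 0 under all alternatives run except recentring on the reference genes, which gave 1 gene, F13a1, none of the 34 and named here because it was the gene called. The count of genes of the set with an unadjusted p under 0.05 was 2, and 3 with the replicate block, where Xcl1 joined Hcst and Klrk1. It was 1, Hcst, on recentring and with the negative controls subtracted, and 8 of 34 with no background limit, where 15.9% of 750 genes met the rule. Leaving out 1 sample gave 0 to 4: 0 without ovPDL1 replicate 2, 1 (Hcst) without ovPDL1 replicate 1, Empty replicate 1 or Empty replicate 3, 3 (Hcst, Klrk1 and Sh2d1b1) without ovPDL1 replicate 3, and 4 (Hcst, Klrc1, Klrk1 and Xcl1) without Empty replicate 2. Relative to Ptprc the 2 were Klrk1 and Xcl1. The median difference over all 34 genes, 0.28, ran from 0.038 to 0.44 over its alternatives, within the spread between samples. With detection set by the highest negative control of a sample, ovPDL1 replicate 1 had 20 detected genes rather than 8 and Empty replicate 2 had 10 rather than 3; the common limit also gave 10 there. Of 143 alternative values of single tested genes, 5 changed sign, and none passed the adjusted threshold. Ctsw went to 0.043 on sample medians, 0.39 without ovPDL1 replicate 1 and 0.097 without Empty replicate 1. Klrc1 went to 0.076 with the negative controls subtracted, and Ncr1 to -0.041 without ovPDL1 replicate 3. In Empty replicate 2 Klrc1 held 12 counts, under the negative control mean of 12.875, so the subtraction set its value to the floor. The cause of the 5 changes was not tested. With 1 sample left out Ctsw ran from -0.43 to 0.39 and Ncr1 from -0.041 to 0.50. The same-numbered samples share only a number, and the block changed no call after adjustment.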

Other observations

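The Gzma values of the 3 Empty samples had an SD below their counting SD. Their SD was 0.018 on the log2 scale, where the recovered counts of 60, 33 and 69 carry a counting SD of 0.21. Sh2d1a in the Empty group showed the same, with an SD of 0.057 and a counting SD of 0.22. These were 2 of 22 pairs of a tested gene and a group. An SD from 3 values is imprecise, and whether these were smaller than counting error would give was not tested.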
